A study of Mus musculus with 13 samples.

Results

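The comparison set 3 libraries of LPS-stimulated macrophages against 3 libraries of untreated macrophages, matched by macrophage pool, over all 40691 consensus regions of a mouse H3K27ac ChIP-seq table. These are 6 of the 12 libraries in the table; the 6 others, in which IL-10 was added to LPS, only helped to estimate the spread. The tested set was 36621 regions. Every macrophage came from Il10-/- Rag2-/- animals of strain 129S6/SvEvTac, and marrow precursors were grown for 5 days with M-CSF. The stimulated group was given LPS at 1 ng/mL for 195 min and no IL-10, and the untreated group was given neither. Both groups therefore lack their own IL-10, and the donors have no mature T or B cells. The series design describes the replicates as independent macrophage pools, numbered 1 to 3. The libraries average over the cells of a pool, so a change in the share of cells that carry the mark and a change in the mark per cell cannot be told apart.

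H3K27ac is acetylation of lysine 27 on histone H3, a mark laid down by the acetyltransferases CBP and p300 on the nucleosomes beside active promoters and enhancers. LPS is sensed by Toll-like receptor 4, whose signalling activates NF-kB, AP-1 and interferon regulatory factors and, in macrophages, remodels enhancers as well as gene starts. Broad stretches of the mark often lie over genes that a cell type depends on or has just induced.

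The microRNA loci give an entry to loci outside the cytokine genes. MicroRNAs are short RNAs that repress messages through a seed, bases 2 to 8, shown here in capitals. Mature strands from RefSeq (GRCm38.p6, the same build as mm10) are given for microRNAs whose hairpin lay in a region that was called higher or lower with LPS and kept that call without each of the 6 libraries in turn; these microRNAs, and the promoters printed next, were chosen after their values were seen.
mmu-miR-155-5p: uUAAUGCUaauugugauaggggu
mmu-miR-21a-5p: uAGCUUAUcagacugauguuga
mmu-miR-125a-5p: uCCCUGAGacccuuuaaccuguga
mmu-let-7e-5p: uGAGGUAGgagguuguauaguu
mmu-miR-221-3p: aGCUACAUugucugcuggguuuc
mmu-miR-222-3p: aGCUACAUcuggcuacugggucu
mmu-miR-223-3p: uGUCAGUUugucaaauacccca
mmu-miR-511-3p: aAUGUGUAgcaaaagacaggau
The miR-221 and miR-222 strands share the seed GCUACAU and their hairpins share 1 region, while the other 6 strands have a seed each.

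Promoters of 4 genes described below are printed 5' to 3' on the strand of the gene, from 250 bases before to 50 bases after a RefSeq start. Capitals mark motif matches. Socs1 and H2-Q7 lie in regions that rose and hold an interferon-stimulated response element core and an NF-kB match. Gpnmb and Slco2b1 lie in regions that fell and hold AP-1 matches.
Socs1, chr16:10785487-10785786, minus strand: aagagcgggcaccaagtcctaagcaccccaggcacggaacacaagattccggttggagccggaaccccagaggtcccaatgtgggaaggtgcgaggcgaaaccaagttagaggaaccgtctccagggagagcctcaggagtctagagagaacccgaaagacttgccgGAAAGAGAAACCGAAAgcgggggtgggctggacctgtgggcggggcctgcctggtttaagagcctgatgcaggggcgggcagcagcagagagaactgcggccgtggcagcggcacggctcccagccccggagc
H2-Q7, chr17:35438905-35439204, plus strand: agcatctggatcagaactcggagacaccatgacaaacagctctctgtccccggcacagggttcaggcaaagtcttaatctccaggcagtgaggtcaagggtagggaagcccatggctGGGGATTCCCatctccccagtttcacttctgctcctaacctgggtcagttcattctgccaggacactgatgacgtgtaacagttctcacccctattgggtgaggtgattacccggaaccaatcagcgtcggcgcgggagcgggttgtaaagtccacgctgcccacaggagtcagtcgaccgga
Gpnmb, chr6:49036268-49036567, plus strand: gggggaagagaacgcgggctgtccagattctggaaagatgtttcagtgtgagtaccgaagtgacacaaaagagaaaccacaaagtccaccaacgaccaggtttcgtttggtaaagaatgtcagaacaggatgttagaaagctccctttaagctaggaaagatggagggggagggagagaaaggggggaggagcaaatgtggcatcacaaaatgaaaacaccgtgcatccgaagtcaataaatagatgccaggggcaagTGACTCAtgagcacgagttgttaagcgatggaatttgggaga
Slco2b1, chr7:99711291-99711590, minus strand: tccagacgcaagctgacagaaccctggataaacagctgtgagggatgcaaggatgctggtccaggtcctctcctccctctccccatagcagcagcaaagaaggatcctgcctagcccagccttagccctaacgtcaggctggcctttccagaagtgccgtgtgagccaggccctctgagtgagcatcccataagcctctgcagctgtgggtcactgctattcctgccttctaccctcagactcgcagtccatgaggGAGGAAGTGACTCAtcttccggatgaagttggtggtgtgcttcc
In the Socs1 promoter the capitals are 2 overlapping matches to GAAA, any 2 bases and GAAA again, the response element core, and in that of Slco2b1 they are GAGGAAGT, the PU.1 motif, joined to TGANTCA, the AP-1 motif, with 1 shared base. A second listed start of Slco2b1, chr7:99706793-99707092, in the same region holds none of the motifs searched.

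Values are the deposited normalised read counts, whole reads times 1 factor per library. The reads in regions came to between 5149730 and 20884182 in the LPS libraries and between 7208540 and 26922552 in the untreated libraries, with a median of 20 to 57 and 30 to 89 reads per region. Between 22.5% and 27.1% of regions in LPS libraries and between 19.7% and 26.8% in untreated libraries lay at 1 read, the lowest value in the table, and no label says whether background was taken off before. LPS replicate 3 stood apart. Across regions its log2 values correlated at 0.721 and 0.742 with the other LPS libraries, which correlated at 0.916 with each other, and at 0.597 to 0.689 with the untreated libraries, against 0.371 to 0.499 for the other LPS libraries. In 78.8% of the regions called higher with LPS, it was the lowest of the LPS libraries. It can be read wherever all 6 values are given; log2 differences printed alone include it. Of 12 macrophage marker genes, all had regions, and their summed value was 52226 to 77054 with LPS and 49548 to 66372 without.

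The mark was higher with LPS in about as many regions as it was lower. Calls were made with limma on log2(value + 1), with macrophage pool as a term, at an adjusted p under 0.05 over all tested regions. In this fit 8840 regions, 24.1% of those tested, were higher with LPS and 9128, 24.9%, were lower. The median log2 difference, LPS minus untreated, was 3.23 among the higher regions and -3.01 among the lower ones, or 3.35 and -2.89 when each region at the floor takes its bound. All LPS libraries lay above all untreated ones in 19.7% of tested regions and below them in 24.1%. The direction was the same in all 3 pools for 99.1% of the higher and 98.9% of the lower regions. The regions were called on the same values with pool as a term, so this agreement follows in large part from the calls. Without LPS replicate 3 the counts were 8751 and 8341. Calls that also survived leaving out any of the 6 libraries, with 1 direction in all pools, numbered 5716 higher (15.6%) and 6016 lower (16.4%), and the regions and genes named below are of this kind unless stated otherwise. The median log2 value of a region was 0.25 lower with LPS, and with every library centred on its median, higher regions made up 56.7% of the calls, against 49.2% as deposited.

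**Figure D1:**
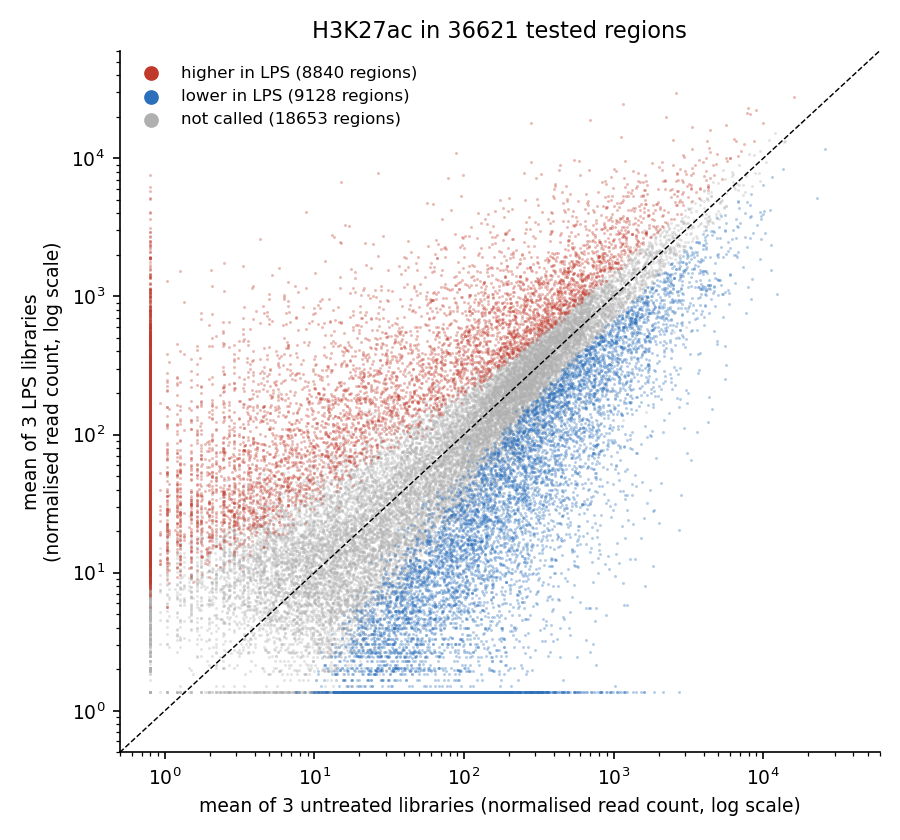
Mean normalised read count of each tested region in the 3 LPS libraries (vertical, log scale) against the 3 untreated libraries (horizontal, log scale), coloured by call. The 8840 higher and 9128 lower regions lie on both sides of the diagonal over the whole range of signal, and the lines of points at the left and lower edges are regions at 1 read in every library of a group.

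The called regions held much of the signal. Regions called higher took 54.2%, 55.4% and 33.7% of the normalised reads in LPS replicates 1 to 3, against 13.9%, 14.8% and 13.1% in untreated replicates 1 to 3. Regions called lower took 10.8%, 10.4% and 16.8% in the LPS libraries and 45.2%, 45.3% and 41.1% in the untreated libraries. These shares describe regions chosen on the same values, and LPS replicate 3 lay nearest the untreated libraries in both. Among the 500 strongest regions of each group, 215 (43.0% of each list) were shared.

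Changes were less frequent at gene starts than away from them. Of 8722 regions that hold a start listed in the RefSeq promoter table, 15.5% were higher with LPS and 17.9% were lower. Inside genes, away from a start, the shares were 24.4% and 27% of 16696 regions. Outside genes they were 30.5% and 27.3% of 11203 regions. The 2370 regions over 100 kb from a protein-coding gene had 37.9% higher and 21.9% lower calls, and their median log2 difference was 0.94, against -0.06 over all tested regions. The classes were compared as shares, without a test, and they differ in signal and width.

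**Figure D2:**
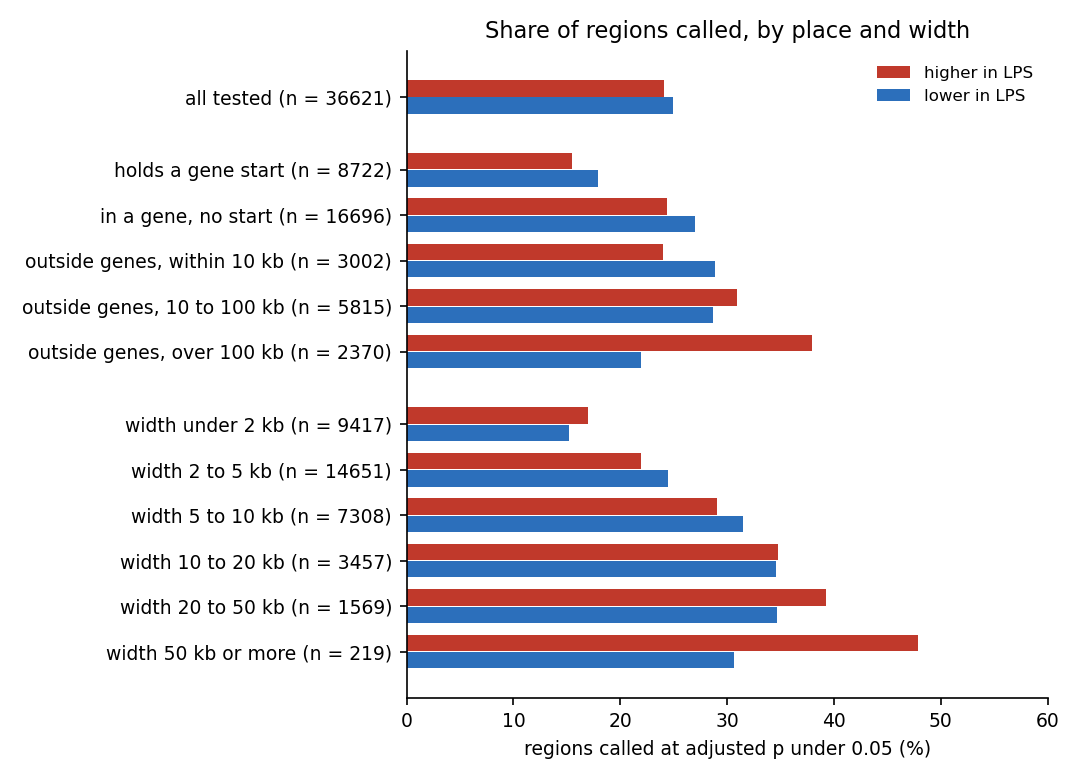
Share of tested regions called higher and lower with LPS (horizontal, in %), by place and by width, with the number of regions in each class. Both shares are smallest at gene starts and in regions under 2 kb, and the share of higher calls reaches 47.9% in regions of 50 kb or more.

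Broad domains changed most often. Of 1788 regions of 20 kb or more, 720 (40.3%) rose and 612 (34.2%) fell with LPS, and 602 (33.7%) and 506 (28.3%) did so without each library in turn. All LPS libraries lay above all untreated ones in 34.5% of these domains and below them in 32.2%. In the 219 regions of 50 kb or more, 47.9% rose and 30.6% fell, whereas in regions under 2 kb 17% rose and 15.2% fell. The broad domains hold more reads than narrow regions, so smaller changes can be called in them, and the part of this in the shares was not tested. Broad changes were smaller on the log2 scale, with medians of 1.95 for the rises and -1.67 for the falls, against 3.30 and -3.10 in regions under 20 kb. The domains held 43.7%, 46.6% and 34.3% of the signal in LPS replicates 1 to 3 and 38.1%, 41.1% and 35.9% in untreated replicates 1 to 3.

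The largest gain of the mark lay over Lpp, which encodes a LIM-domain protein of cell adhesions. The domain, chr16:24581460-24801775 (mm10, as for all coordinates), is 220316 bp wide and holds a start of the gene. It had 31674, 44835 and 11804 normalised reads in LPS replicates 1 to 3, against 2435, 3604 and 1761 in untreated replicates 1 to 3, a log2 difference of 3.36 (SE 0.20, adjusted p = 2.83e-08). All LPS libraries lay above all untreated ones, with LPS replicate 3 the lowest of the stimulated libraries. It belongs to a stretch of 20 neighbouring regions called higher, chr16:24332440-25070900, whose far end, 7085 bp from Lpp, was itself among the strongest regions with LPS at 22170.2 ± 10199.9 against 8928 ± 1604 untreated (mean ± SD, n = 3 each).

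Formyl peptide receptors detect bacterial and mitochondrial peptides, and Has1 makes hyaluronan. The region over Fpr1, Fpr2 and Has1, chr17:17852318-17926841, had 25029.9, 39662 and 9428 normalised reads with LPS, against 831, 1728 and 895 without, a log2 difference of 4.28 (SE 0.25, adjusted p = 2.47e-08). The groups were far apart. Close by, at chr17:17824677-17833272 in Spaca6, lie the hairpins of miR-125a and let-7e; that region had 1377, 1341 and 1298 with LPS and 108, 98.3 and 288 without, a log2 difference of 3.20 (SE 0.32, adjusted p = 3.82e-06). Here LPS replicate 3 was level with the other stimulated libraries.

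Ch25h encodes the enzyme that makes 25-hydroxycholesterol, an oxysterol induced in activated macrophages. Its domain, chr19:34357981-34485337, had 27385, 25032 and 4212 normalised reads with LPS, against 1028, 997 and 67.8 without, a log2 difference of 5.11 (SE 0.42, adjusted p = 4.27e-06). LPS and untreated values were lowest in pool 3, and the difference held within each pool. Tnfaip3, the gene of the ubiquitin-editing protein A20 that restrains NF-kB, lies in a domain of 140516 bp, chr10:18991787-19132302. That domain had 23117, 30257 and 6279 with LPS and 2329, 2678 and 1706 without, a log2 difference of 2.90 (SE 0.26, adjusted p = 1.36e-06).

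Other large gains lay over domains that already carried signal in untreated cells. The domain over Vmp1, an autophagy gene, and Tubd1, chr11:86567122-86639770, also holds the miR-21a hairpin. It had 20270.2, 31571 and 11861 normalised reads with LPS, against 6243, 9198 and 7801 without, a log2 difference of 1.36 (SE 0.20, adjusted p = 0.0001). The domain over Pid1 and Dner, chr1:84271806-84373282, had 22100.1, 34858 and 12426 with LPS and 5934, 10629.6 and 7299 without, a log2 difference of 1.46 (SE 0.21, adjusted p = 6.56e-05). The domain of Socs3, a feedback inhibitor of cytokine receptor signalling, and of Pgs1 spans chr11:117901391-118001446 and had 14682, 18663 and 17100.4 with LPS and 2579, 2812 and 4669 without, a log2 difference of 2.37 (SE 0.17, adjusted p = 2.14e-07). In these 3 domains the groups did not overlap.

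**Figure D3:**
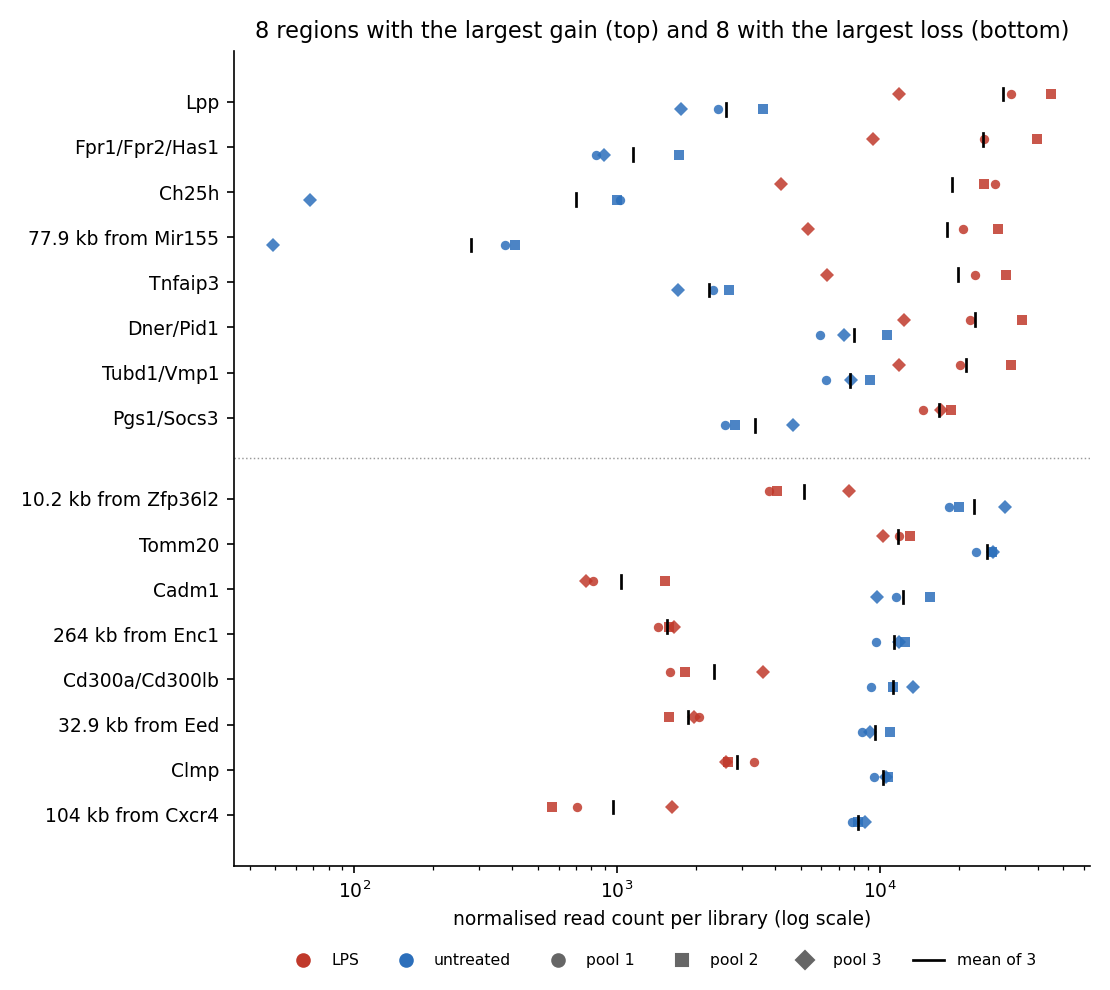
Normalised read count (horizontal, log scale) in each LPS and untreated library for the 8 regions with the largest gain and the 8 with the largest loss of mean value, each group drawn above or below its partner with a bar at its mean. The 3 LPS libraries lie on 1 side of the 3 untreated libraries in every region, and pool 3, drawn as diamonds, is the lowest LPS library in 7 of the 8 gains.

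The Mir155 locus gained the mark along a long stretch. MiR-155 is an LPS-induced microRNA of macrophages, encoded with its host transcript Mir155hg. Of 15 tested regions within 300 kb of the hairpin, 10 were called higher and none lower, 8 of them in a row, and in 8 of the 10 the untreated libraries were at the floor. The region with the hairpin, chr16:84696250-84722216, also overlaps Mrpl39, a mitochondrial ribosome gene, and had 7585, 12074 and 3077 normalised reads with LPS, against 0.707, 1.26 and 0.419 without. The untreated values are 1 read each, so the deposited value was at least 3176-fold higher (bound at 3 reads per library). A still stronger region, chr16:84577278-84636259, lies 77881 bp before the hairpin with no annotated protein-coding gene in it, and had 20717, 28185 and 5328 with LPS and 377, 411 and 49.0 without, a log2 difference of 6.20 (SE 0.27, adjusted p = 1.25e-09). The 5 uncalled regions all lie beyond the hairpin, 18751 bp or farther from it.

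**Figure D4:**
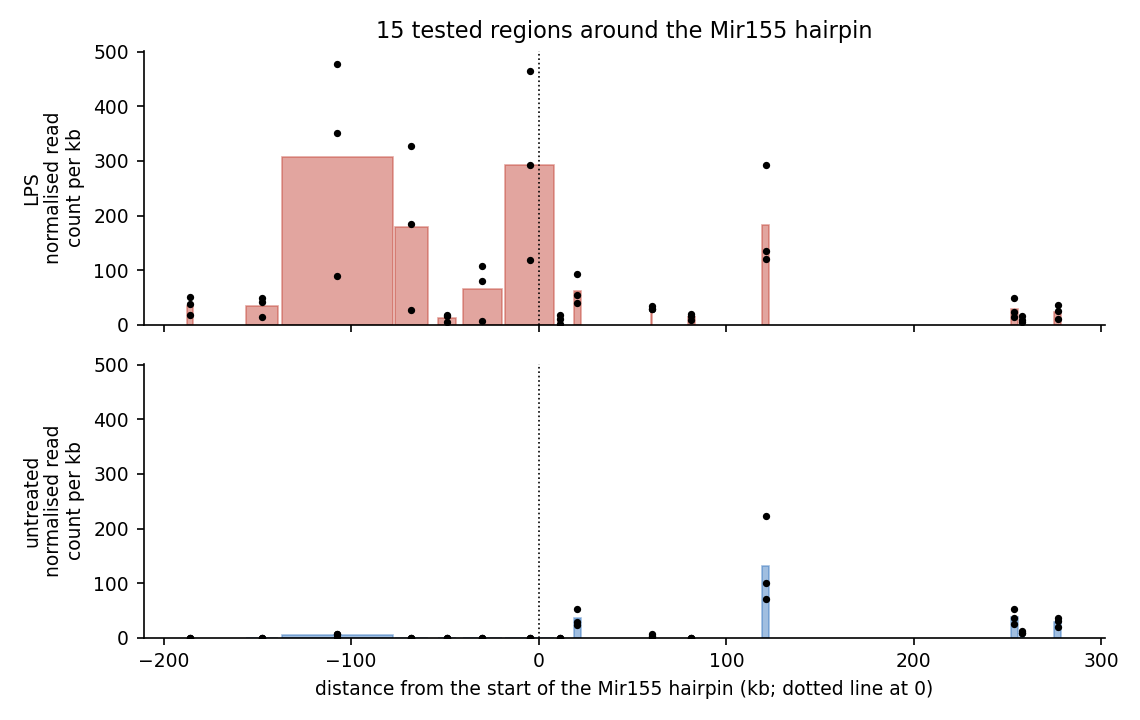
Normalised read count per kb (vertical) in the 15 tested regions around the Mir155 hairpin, LPS above and untreated below on the same scale, against distance from the hairpin start in kb. Bars are means of 3 libraries with the bar width equal to the region width, and points are single libraries. With LPS the 2 tallest broad blocks lie upstream of and across the hairpin, where the untreated panel is almost empty.

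Other microRNA loci moved in both directions. Of 235 hairpins in tested regions, 52 (22.1%) lay in higher and 69 (29.4%) in lower regions, close to the shares over all regions. The region with miR-221 and miR-222, chrX:19141034-19147094, was weak and had 159, 158 and 19.9 normalised reads with LPS, against 21.2, 1.26 and 0.419 without, a log2 difference of 4.29 (SE 0.77, adjusted p = 0.000432). The lowest LPS library there lay just below the highest untreated one, and untreated replicates 2 and 3 were at 1 read. Mir223, a myeloid microRNA, lost signal: chrX:96235024-96246300 had 641, 1077 and 248 with LPS and 1185, 2799 and 741 without, a log2 difference of -1.28 (SE 0.29, adjusted p = 0.00252). Within each pool the LPS value was the lower, although the groups overlapped. Mir511, which lies within the mannose receptor gene Mrc1, had 11.8, 1.68 and 0.464 with LPS against 138, 183 and 18.8 without, and its log2 difference was -4.43 (SE 0.75, adjusted p = 0.000273). LPS replicates 2 and 3 were at 1 read in the Mir511 region, so the size of this fall is uncertain. The region of miR-146b also named after its values were seen, had 1499, 2287 and 1952 with LPS and 848, 1084 and 1776 without and was not called (adjusted p = 0.0572).

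The largest loss lay in a stretch of 122330 bp without a protein-coding gene, chr17:84051345-84173674, 10250 bp from Zfp36l2, which encodes an mRNA decay factor. It had 3803, 4057 and 7668 normalised reads with LPS, against 18419.5, 20048 and 29942 without, a log2 difference of -2.18 (SE 0.15, adjusted p = 1.25e-07). The domain overlapping Tomm20, chr8:126743614-126933483, was the strongest of all regions in untreated cells. It had 11802, 13027 and 10326 with LPS and 23218, 26883 and 26958 without, a log2 difference of -1.14 (SE 0.16, adjusted p = 6.22e-05). In both, every LPS library lay below every untreated one.

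Cadm1, a gene of an immunoglobulin-like adhesion molecule, lost the mark in a pair of adjacent regions that hold no start of the gene. The domain chr9:47692119-47766453 had 815, 1522 and 766 normalised reads with LPS, against 11507, 15598 and 9807 without, a log2 difference of -3.62 (SE 0.23, adjusted p = 4.49e-08). Its neighbour within the gene, chr9:47768136-47821315, was at 1 read in all LPS libraries, against 2896, 3177 and 2102 in untreated libraries, at least 662.7-fold lower with LPS. Clmp, another adhesion gene, fell in chr9:40680249-40769248 by 1.85 on the log2 scale (SE 0.19, adjusted p = 3.85e-06). The region over Cd300a and Cd300lb, which encode paired receptors of myeloid cells, chr11:114874282-114937061, had 1599.7, 1819.9 and 3598 with LPS and 9254, 11257 and 13339 without, a log2 difference of -2.35 (SE 0.18, adjusted p = 3.12e-07).

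Several of the large losses overlapped no protein-coding gene. A region 263972 bp from Enc1, chr13:97517012-97609588, had 1428, 1585 and 1649.5 normalised reads with LPS, against 9671, 12498 and 11828 without, a log2 difference of -2.86 (SE 0.26, adjusted p = 1.91e-06). One 103692 bp from Cxcr4, the gene of a chemokine receptor, chr1:128695991-128757952, had 706, 566 and 1620.3 with LPS and 7818, 8278 and 8783 without, a log2 difference of -3.26 (SE 0.26, adjusted p = 4.78e-07). That 32908 bp from Eed, chr7:90013884-90077363, fell by 2.36 (SE 0.19, adjusted p = 4.17e-07). LPS and untreated libraries did not overlap in any of them; near Cxcr4 LPS replicate 3 was over the other LPS libraries, and at the other two it lay close to them.

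Many regions were at the floor in 1 group. The floor was taken as 3 reads or fewer in every library of a group. At the floor with LPS were 2196 of the 9128 lower regions, and at the floor without LPS were 3622 of the 8840 higher regions. Of these regions at the floor, 107 of the higher and 41 of the lower hold a gene start, and 60 and 13 are 20 kb or wider. Among all 36621 tested regions 8722 hold a start and 1788 are 20 kb or wider. Beside the Mir155 region, the strongest of those at the floor without LPS lie 44967 bp from Itgb8 (chr12:119060305-119117836, at least 2608.9-fold higher with LPS), 33690 bp from Il6 (chr5:29910297-29979424, at least 2411.8-fold) and over the kinase gene Alpk2 (chr18:65295205-65343275, at least 2145.2-fold). At the first, LPS replicates 1 to 3 had 7329, 10563 and 784 normalised reads, and without LPS replicate 2 the bound was 1700.0-fold. At the second they had 7373, 9617 and 276, and without LPS replicate 2 the bound was 1602.5-fold. At the floor with LPS, beside Cadm1, were a region 38024 bp from 3110040M04Rik (chr1:151243820-151275257, at least 516.2-fold lower), one in Slco2b1 (chr7:99659423-99686900, at least 454.0-fold lower) and one in Dusp27 (chr1:166096239-166119322, at least 390.7-fold lower). These bounds describe deposited values, and a region at the floor is not shown to be free of the mark.

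Neighbouring calls were also counted in runs. Counting 5 or more neighbouring calls of 1 direction with gaps of 50 kb or less, 353 runs were higher and 367 were lower with LPS. Uncalled regions inside a run were passed over. With 24.1% of tested regions higher and 24.9% lower, runs can also arise because calls are frequent. Whether the counts exceed this was not tested. The longest run held 37 of the 40 tested regions in chr15:67569911-68083611, a span that overlaps no protein-coding gene and ends 103 bp from Zfat. Its summed value was 19418, 27569.7 and 8821 with LPS and 2971, 3965 and 2036 without. The next, chr18:39303013-39879283, held 26 regions over Arhgap26 and Nr3c1, and chr12:118993622-119471908 held 19 over Itgb8 and Macc1, with sums of 29008, 40126 and 4406 with LPS against 629, 547 and 288 without. Every such sum was higher with LPS in each pool. The sums cover only the regions called higher, not the whole span, so their direction follows from how the regions were chosen.

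The longest run of losses held 19 regions between Miga2 and Cstad, chr2:30384187-30785983. Its sum was 1399, 1857 and 7775 with LPS and 11256, 9779.9 and 18659 without, and LPS replicate 3 lay well above the other LPS libraries. Over Sulf2, a heparan sulfate editing gene, 16 regions of chr2:166115569-166492673 summed to 758, 534 and 1529 with LPS and 9344, 8098 and 8039 without. Runs of 17 regions between Slc7a5 and Trhr2 (chr8:121876292-122357995) and of 15 regions over Rnf150 and Tbc1d9 (chr8:82845303-83218415) also fell. In each of these runs the LPS libraries lay below the untreated ones. These sums cover only the regions called lower, so this too follows from how the regions were chosen.

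The strongest region of a group was not always a changed one. Cebpb, the gene of a transcription factor of inflamed macrophages, lies in chr2:167683622-167875302, which was among the 5 strongest regions of both groups, with 23678, 25069 and 34026 normalised reads with LPS and 13769, 13249 and 21345 without, a log2 difference of 0.79 (SE 0.13, adjusted p = 0.000288). The region over Fth1, the ferritin heavy chain gene, and Best1 was not called, at 18017 ± 3752 with LPS and 17753 ± 1154 without (SD, n = 3 each; adjusted p = 0.987). Neither was one 55646 bp from Zeb2, at 13228 ± 7145 and 13978 ± 4413 (adjusted p = 0.465).

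To describe functions, a gene was given the sum of all regions that overlap it, or else lie nearest to it within 100 kb. Of 13479 genes tested, 2710 (20.1%) rose and 3158 (23.4%) fell, and 1852 (13.7%) and 1935 (14.4%) did so without each library in turn. All LPS libraries lay above all untreated ones at 17.7% of genes and below them at 19.2%. The median log2 difference over all genes was -0.11. With median centring 60.4% of the calls were rises, against 46.2% as deposited, so small falls depend on the scaling. Neighbouring genes can share a region and are then not independent. A gene's sum need not include its start: no tested region of Ccnd2, Slc7a2, Plat, Nr3c1, Adora2a, Thbd, Ccr7 and several other genes named below holds one.

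**Figure D5:**
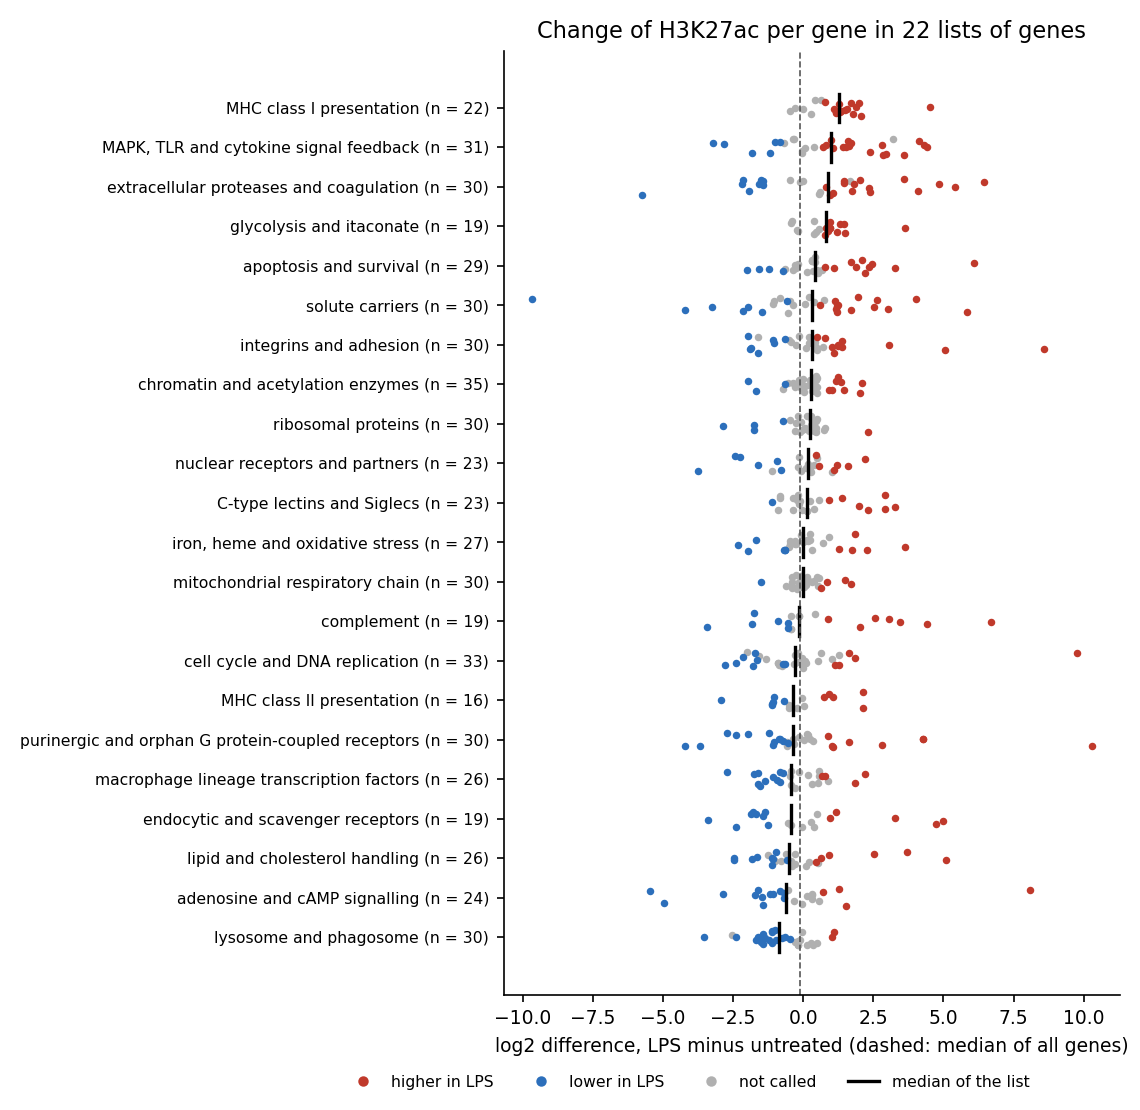
Log2 difference of H3K27ac per gene, LPS minus untreated (horizontal), for 22 lists of genes sorted by their median, with the number of genes tested. Points are genes coloured by call, black bars are list medians and the dashed line is the median of all genes. MHC class I presentation has the highest median, 1.27, and lysosome and phagosome the lowest, -0.87.

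Genes listed under glycolysis and itaconate, among them Slc2a1, Slc16a3, Hif1a and Acod1, rose more often than they fell. Of 19 tested, 11 rose (57.9%) and 0 fell, against 20.1% and 23.4% of all genes, with a median log2 difference of 0.81. Of the rises 6 survived leaving out any library. In this list 0 fell under edgeR's quasi-likelihood test and 0 were lower at an unadjusted p under 0.05 in limma. The rises numbered 15 under edgeR and 6 without the pool term. Without LPS replicate 3, 8 rose and 1 fell, Ldha, a lactate dehydrogenase gene, at -0.74 (adjusted p = 0.0196 in limma, against -0.43 and 0.17 with all libraries). Acod1, which makes itaconate, had 13938, 20843 and 8099 normalised reads with LPS, against 963, 1659 and 752 without, a log2 difference of 3.64 (SE 0.21, adjusted p = 2.81e-09). Pfkp, a phosphofructokinase gene, averaged 1218 ± 316 with LPS and 424 ± 72.6 without (log2 difference 1.5), and Gapdh, whose region is shared with another gene, 1172 ± 599.6 and 466 ± 341 (1.46). LPS and untreated libraries did not overlap at Acod1 and Pfkp and overlapped at Gapdh.

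Few genes of the mitochondrial respiratory chain were called. Of 30 genes 4 rose (13.3%) and 1 fell (3.3%), against 20.1% and 23.4% of all genes, with a median of -0.01. Sdhb, a subunit of succinate dehydrogenase, had 2109, 2258 and 3770.1 with LPS and 7294, 6259 and 8929.7 without, a log2 difference of -1.50 (SE 0.18, adjusted p = 9.01e-06) in a region shared with neighbouring genes. Of 30 ribosomal protein genes 1 rose (3.3%) and 4 fell (13.3%), again against 20.1% and 23.4%, around a median of 0.23.

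Lysosomal genes fell more often than they rose. Of 30 genes of the lysosome and phagosome, 17 fell (56.7%) and 2 rose (6.7%), against 23.4% and 20.1% of all genes. The median of the list was -0.87, and 15 of the falls survived leaving out any library. Atp6v0d2, a subunit of the acidifying proton pump, had 769, 1038 and 481 normalised reads with LPS, against 8475, 11077 and 6666 without, a log2 difference of -3.55 (SE 0.63, adjusted p = 0.00148). Most of this signal lay in 1 region, chr4:19834564-19904972, shared with Slc7a13, and none of the 4 tested regions of Atp6v0d2 holds its start. Gpnmb, a glycoprotein of lysosomes whose promoter is printed above, had 992, 1057 and 1723 with LPS and 6218, 5143 and 8051 without, a log2 difference of -2.38 (SE 0.18, adjusted p = 6.56e-08). At both genes the groups were wide apart. Npc1, which moves cholesterol out of lysosomes, fell by 1.70 (SE 0.26, adjusted p = 7.1e-05). Mitf, a transcription factor of lysosomal genes, rose by 1.04 (SE 0.20, adjusted p = 0.000657) and Lamp2 by 1.09, a call of Lamp2 that ended when only overlapping regions were counted.

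Receptors that take up ligands changed in both directions. Of 19 endocytic and scavenger receptor genes 5 rose (26.3%) and 8 fell (42.1%), against 20.1% and 23.4% of all genes. All of these calls also held without each library in turn, and the median of the list was -0.45. Timd4, a receptor for phosphatidylserine on dying cells, had 5303, 6268 and 2349.7 with LPS and 293, 344 and 39.4 without, a log2 difference of 4.74 (SE 0.34, adjusted p = 1.11e-07), and Olr1, a receptor for oxidised LDL, rose by 3.29. Trem2, a lipid-sensing receptor, had 313, 477 and 937 with LPS, against 2206, 2429 and 3723 without, a log2 difference of -2.38 (SE 0.25, adjusted p = 1.89e-06). Fcrls fell by 3.40 and Mrc1, the mannose receptor gene that hosts Mir511, by 1.85. In all these the groups were apart in every library.

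Lipid genes were divided. Of 26 genes 6 rose (23.1%) and 9 fell (34.6%), against 20.1% and 23.4% of all genes. Of these, 3 and 6 held without each library in turn. Lpl, which encodes lipoprotein lipase, had 1828, 4905 and 1662 with LPS and 159.8, 233 and 180.0 without, a log2 difference of 3.70 (SE 0.25, adjusted p = 2.15e-08), and Acsl1, an acyl-CoA synthetase gene, rose by 2.52. The region shared by Apoe, Apoc2 and other genes had 551, 721 and 1300.3 with LPS, against 3726, 3204 and 7294 without, a log2 difference of -2.46 (SE 0.21, adjusted p = 2.16e-07). Fabp5, a fatty acid carrier gene, fell by 1.84.

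Of 23 genes of nuclear receptors and partners 6 rose and 6 fell (26.1% each, near the shares over all genes), with a median of 0.17. Rxra, the common partner of lipid-sensing receptors, had 238, 133 and 1712 normalised reads with LPS, against 5719, 3289 and 7284 without, a log2 difference of -3.76 (SE 0.43, adjusted p = 1.92e-05), and all 4 of its tested regions fell. Pparg fell in 8 of 9 tested regions, by 1.45 at its start. Nr1d1, a circadian repressor gene, fell by 2.42. Nr1h3, an oxysterol receptor gene named after its values were seen, was higher by 0.46 (adjusted p = 0.0454), a call that did not hold without every library. Nr3c1, the glucocorticoid receptor gene, had 7201, 7755 and 3396 with LPS and 1484, 916 and 1436 without, a log2 difference of 2.20 (SE 0.28, adjusted p = 1.95e-05), with 10 of 12 tested regions higher. At Rxra LPS replicate 3 was far above the other LPS libraries yet below every untreated one.

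Transcription factors of the macrophage lineage fell more often than they rose. Of 26 genes 4 rose (15.4%) and 11 fell (42.3%), against 20.1% and 23.4% of all genes, with a median of -0.45. With median centring the counts were 9 and 9. Irf8, an interferon regulatory factor gene of myeloid cells, had 724, 849 and 1137 with LPS and 2732, 2504 and 3987 without, a log2 difference of -1.76 (SE 0.20, adjusted p = 4.76e-06), and Id3 fell by 1.62. Egr2, an immediate early factor gene, had 608, 788 and 770.2 with LPS, against 163, 65.5 and 355 without, and rose by 2.19 (SE 0.47, adjusted p = 0.0018), and Batf rose by 1.84. Spi1, which encodes PU.1, had 9138, 13272 and 11439.7 with LPS and 5668, 6294 and 9546 without, a log2 difference of 0.68 (SE 0.20, adjusted p = 0.0119) whose call did not hold without every library.

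Adenosine and cAMP genes fell more often than they rose as deposited, with receptors and enzymes in both directions. Of 24 genes 4 rose (16.7%) and 12 fell (50%), against 20.1% and 23.4% of all genes, with a median of -0.61. With median centring 6 rose and 7 fell. At Adora2a, the gene of an adenosine receptor that raises cAMP, all 3 tested regions were higher, and the phosphodiesterase gene Pde4b had 13313, 19293 and 5575 with LPS and 3280.2, 5582 and 3195 without, a log2 difference of 1.54 (SE 0.23, adjusted p = 5.31e-05), with LPS replicate 3 just below the highest untreated library. Ada, the gene of adenosine deaminase, had 5.90, 5.04 and 47.8 with LPS, against 627, 500.5 and 576 without, a log2 difference of -5.48 (SE 0.78, adjusted p = 3.78e-05). Adcy3, an adenylyl cyclase gene, fell by 4.98 and Entpd1, the gene of the ectoenzyme CD39, by 1.73. The regions with the starts of Ada and Adcy3 were not called in limma, at -1.89 (adjusted p = 0.0553) and -1.51 (adjusted p = 0.176). Adora3, another adenosine receptor gene, named after its values were seen, fell by 1.63. Ada was near the floor in LPS replicates 1 and 2.

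Of 30 purinergic and orphan receptor genes 8 rose (26.7%) and 12 fell (40.0%), against 20.1% and 23.4% of all genes. Hcar2, the receptor for hydroxybutyrate and niacin, shares its region with a neighbour and had 2518, 3136 and 1356 with LPS and 1 read in each untreated library, at least 979.2-fold higher. Gpr146 had 100.3, 306 and 1845 with LPS, against 6572, 5696 and 9748 without, a log2 difference of -4.21 (SE 0.62, adjusted p = 0.000759). Gpr160 fell by 3.68 and Gpr34, the lysophosphatidylserine receptor gene, by 2.70. The untreated values of these 3 genes all exceeded the LPS values.

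Solute carriers rose more often than they fell. Of 30 genes 13 rose (43.3%) and 7 fell (23.3%), against 20.1% and 23.4% of all genes. Slc7a2, which imports arginine, had 4136, 3860.0 and 846 with LPS and 82.7, 21.4 and 36.8 without, a log2 difference of 5.85 (SE 0.44, adjusted p = 5.78e-07). Slco3a1 rose by 4.02 and the metal importer gene Slc39a14 by 3.01. Slco2b1, an organic anion carrier gene whose promoter is printed above, had 3.94, 3.36 and 0.927 with LPS, against 3634, 3172 and 1967 without, with 1 read in each of its 2 regions in every LPS library. Slc9a9, a sodium-proton exchanger gene, fell by 3.25.

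Among 27 genes of iron handling and oxidative stress, 5 rose and 6 fell (18.5% and 22.2%, near the shares over all genes). Sod2, the mitochondrial superoxide dismutase gene, had 3323, 4388 and 2743 with LPS and 235, 189 and 479 without, a log2 difference of 3.62 (SE 0.30, adjusted p = 3.08e-07). Hamp, the gene of the iron hormone hepcidin, rose by 2.27, whereas Slc40a1, the iron exporter gene that hepcidin acts on at the protein level, had 472, 583 and 583 with LPS, against 2458, 2225 and 1799 without, a log2 difference of -1.98 (SE 0.28, adjusted p = 3.74e-05). Keap1 had 3618, 3643 and 3643 with LPS and 957, 812 and 1349 without and rose by 1.84. Bach1, a heme-sensing repressor gene, fell by 1.69.

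Antigen presentation genes were counted by class. Of 22 genes of MHC class I presentation 16 rose (72.7%) and 0 fell, against 20.1% and 23.4% of all genes, with a median of 1.27. In this list 0 fell under edgeR and 0 were lower at an unadjusted p under 0.05 in limma. H2-Q7 had 70.8, 80.7 and 439 with LPS and 2.83, 1.26 and 23.4 without, a log2 difference of 4.53 (SE 0.96, adjusted p = 0.00147), and H2-T22 and H2-T23 rose by 2.05 and 1.99. Untreated replicate 2 was at 1 read for H2-Q7. Reads from near-identical H2 genes may be split between copies, so single values there are uncertain. Of 16 class II genes 5 rose (31.2%) and 6 fell (37.5%), against 20.1% and 23.4% of all genes. The region shared by H2-Ab1 and H2-Ob had 4616, 6140.4 and 3518 with LPS and 1178, 1048 and 932 without, a log2 difference of 2.15 (SE 0.21, adjusted p = 8.68e-07). Ifi30, a thiol reductase gene of antigen processing, fell by 2.92 and Ctss, the gene of the protease cathepsin S, by 1.12.

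Of 33 cell cycle and replication genes 5 rose (15.2%) and 8 fell (24.2%), near the 20.1% and 23.4% of all genes. Ccnd2, the cyclin D2 gene, had 4459, 4119 and 1236 with LPS, against 2.12, 3.78 and 1.26 without, which is 1 read in each of its 3 regions in every untreated library. None of these 3 regions holds a start of the gene. Cdkn1a, the gene of the cyclin kinase inhibitor p21, had 7601, 9295 and 9811 with LPS and 2104, 2042 and 3355 without, a log2 difference of 1.86 (SE 0.18, adjusted p = 6.48e-07). Mcm2, part of the replicative helicase, fell by 2.79 and E2f2 by 2.38. Of 29 apoptosis and survival genes 10 rose (34.5%) and 4 fell (13.8%), against 20.1% and 23.4% of all genes. Bcl2a1a, an anti-apoptotic gene with near-identical copies that can split its reads, rose by 6.08, the death receptor gene Fas by 3.26 and Birc2 by 2.45, and Bmf, a pro-apoptotic gene, had 649, 659 and 1936 with LPS, against 3710.1, 2756 and 5396 without, a log2 difference of -2.02 (SE 0.23, adjusted p = 3.92e-06).

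Genes of extracellular proteases and coagulation were often called. Of 30 genes of extracellular proteases and coagulation 15 rose (50%) and 9 fell (30.0%), against 20.1% and 23.4% of all genes. The median of the list was 0.87. F3, the gene of tissue factor, had 614, 499 and 262 with LPS and 22.6, 1.26 and 60.7 without, a log2 difference of 4.86 (SE 1.01, adjusted p = 0.00369). Untreated replicate 2 was at 1 read for F3, so the size of this rise is uncertain. Plat, a plasminogen activator gene, rose by 5.40 and Mmp25 by 6.43. Thbd, the gene of the anticoagulant receptor thrombomodulin, had 1.97, 1.68 and 128 with LPS, against 518, 483 and 642 without, a log2 difference of -5.75 (SE 0.87, adjusted p = 0.000196). LPS replicates 1 and 2 were at 1 read there and replicate 3 was not. Procr, an anticoagulant receptor gene of the same list, named after its values were seen, rose by 4.08. Of 19 complement genes 7 rose (36.8%) and 6 fell (31.6%), against 20.1% and 23.4% of all genes. Cfb rose by 6.68 and C3, the central component, had 1796, 1696 and 1345 with LPS and 117, 163 and 158 without, a log2 difference of 3.46 (SE 0.23, adjusted p = 2.11e-08), while C4b fell by 3.43 and Vsig4, a receptor for C3 fragments, by 1.77. Cfb and C3 share their regions with neighbours.

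Genes of shape and adhesion changed both ways. Fscn1, the actin bundler fascin, had 488, 622 and 448 with LPS and 19.8, 3.78 and 25.5 without, a log2 difference of 5.22 (SE 0.50, adjusted p = 1.31e-06). Arhgap24, the gene of a Rac-directed GTPase activator with 21 regions, had 909, 403 and 327 with LPS, against 6390.1, 6156 and 3798 without, a log2 difference of -3.42 (SE 0.38, adjusted p = 1.87e-05). The 2 genes showed no overlap of groups. Of 30 integrin and adhesion genes 11 rose (36.7%) and 7 fell (23.3%), against 20.1% and 23.4% of all genes. Itgb8, an integrin gene that activates latent TGF-beta, had 18745, 27044 and 2569 with LPS and 65.0, 49.2 and 5.86 without, a log2 difference of 8.59 (SE 0.21, adjusted p = 2.17e-13), with 12 of its 14 tested regions higher. Itgb5 had 2900.2, 3292 and 3539.6 with LPS, against 12226, 11002 and 11733 without, a log2 difference of -1.85 (SE 0.18, adjusted p = 6.56e-07). Of 23 C-type lectin and Siglec genes 7 rose (30.4%) and 1 fell (4.3%), again against 20.1% and 23.4%. The fall did not hold without each library. Clec4e, a receptor for mycobacterial glycolipid, rose by 2.91.

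Signal feedback genes rose more often than they fell. Of 31 genes of MAPK, Toll-like receptor and cytokine signal feedback 17 rose (54.8%) and 6 fell (19.4%), against 20.1% and 23.4% of all genes. Of these, 16 and 4 held without each library in turn, and the median of the list was 1.00. Dusp2, a MAPK phosphatase gene, had 3853, 3988 and 3504 with LPS and 129, 144 and 284 without, a log2 difference of 4.43 (SE 0.28, adjusted p = 1.51e-08). Socs1, whose promoter is printed above, had 1159, 1146 and 1458 with LPS, against 107, 23.9 and 138 without, a log2 difference of 4.12 (SE 0.43, adjusted p = 4.48e-06), and Cish rose by 4.31. Dusp3, another phosphatase gene, had 84.6, 143 and 386 with LPS and 1248, 1403 and 2114 without, a log2 difference of -3.20 (SE 0.37, adjusted p = 4.35e-06). Within the family of feedback genes the Dusp and Socs members thus went both ways, as Socs6 fell by 1.84. Of 35 genes of chromatin and acetylation enzymes 8 rose (22.9%, near the 20.1% of all genes) and 3 fell (8.6%), and 14 rose with median centring. Hdac1, in regions shared with other genes, rose by 2.01, Setdb2, likewise shared, by 2.10 and Dot1l, a histone methyltransferase gene, by 1.46.

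Promoters were searched for 6 motifs on both strands over 300 bases. The sets were 1850 RefSeq promoters in regions higher with LPS, 2088 in lower regions, 11700 in all tested regions and 21262 in all, and shares are given in that order. The interferon-stimulated response element core was in 6.11%, 2.44%, 3.32% and 3.35%. The NF-kB consensus was in 8.11%, 4.45%, 5.32% and 4.81%. Both were most frequent in the higher regions. TGANTCA, the AP-1 motif, was in 7.03%, 5.80%, 5.06% and 6.99%, so that its share in higher regions lay above that of tested promoters and level with that of all. GAGGAAGT, the PU.1 motif, was in 3.95%, 4.41%, 3.39% and 3.13%. TGACGTCA, the cAMP response element, was in 3.89%, 2.11%, 3.27% and 2.23%. The E-box CACGTG was in 8.54%, 9.82%, 10.2% and 7.84%, and its share in higher regions lay below that of tested promoters and above that of all. Matches may overlap between motifs. The shares describe letters in these windows, with no test.

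Markers of other cells were counted beside these results, and their part in the results was not tested. Of the macrophage markers tested, 2 rose (16.7%) and 4 fell (33.3%), against 20.1% and 23.4% of all genes. Csf1r, the receptor for M-CSF, had 3538, 4766 and 5359 with LPS and 7234, 7365 and 9762 without, a log2 difference of -0.84 (SE 0.17, adjusted p = 0.000996), and Cd14 rose by 1.65. Of 12 T and NK cell markers 8 were tested, of which 5 rose and 2 fell. With overlapping regions only, 2 rose and 2 fell. Their summed values were 1248 to 1413 with LPS and 549.6 to 858 without. Cd3g, Cd8a, Trac and Bcl11b had no region. Neutrophil markers summed to 4823 to 5811 with LPS and 4647 to 7356 without, with Ly6g at the floor in all 6 libraries. Dendritic cell markers summed to 7499 to 18952 and 13148 to 17331; Ccr7 had 1265, 1949 and 734 with LPS and 23.3, 6.30 and 2.09 without, and Flt3 had 5.90, 5.04 and 10.2 with LPS, against 1120.5, 989.6 and 1531 without. B cell markers summed to 1552 to 2046 with LPS and 2509 to 3246 without, fibroblast markers to 6096 to 13824 and 7253 to 9771 with Col1a1 at the floor in all 6, and erythroid and mast cell markers to 179.8 to 326 and 128.6 to 342. Actb, a housekeeping gene, had 6332, 6932 and 8125 with LPS and 4183, 4259.7 and 7443 without and was not called (adjusted p = 0.0591).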

How the data were processed

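H3K27ac ChIP-seq was measured in 12 macrophage libraries, 3 in each of 4 groups, and 3 LPS and 3 untreated libraries are compared. The tools named, per the submitters' processing notes, are Bowtie2, DiffBind, MACS2 and Trim Galore, with build mm10 and no versions or settings. The deposited signal values are normalised read counts in 40691 consensus regions. Dividing each library by its lowest step gave whole reads for 100% of values (within 0.0001 reads). The input library was not analysed here.

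Regions in the lowest 10% of mean value were left out, which kept 36621. limma 3.58.1 (R 4.3.3; trend, robust) was fitted to log2(value + 1) over all 12 libraries with group and macrophage pool as terms, with Benjamini-Hochberg adjustment at 0.05. Adding 1 shrinks ratios in low regions, but the value of 1 read also differed, at 1.97, 1.68 and 0.464 in LPS replicates 1 to 3. In untreated replicates 1 to 3 it was 0.707, 1.26 and 0.419. Among the fifth of tested regions with the lowest mean signal, 32.2% were higher and 9.27% lower, with a median log2 difference of 1.13. The part of the scale in this was not tested. The pools come from the series design, and deviations of same-numbered LPS and untreated libraries correlated at 0.246, 0.432 and 0.581. Unlike-numbered pairs ran from -0.494 to 0.330, and that of untreated replicate 2 with LPS replicate 1 was above the same-numbered pair 1. Without the pool term 6053 regions were higher and 6573 lower. edgeR 4.0.16 on the recovered reads was an alternative, and called 9339 regions higher and 8370 lower. On simulated data the fit recovered 100% of changes of 2 and -2, and 40% and 16% of changes of 1 and -1, on the log2 scale, with 36620 regions. The altered regions, 50 per size of change, all had untreated signal above the median. No pool effect or outlying library was simulated, so these rates need not hold for the real libraries or for weak regions.

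Genes came from RefSeq spans and starts, so exons and introns are not given. Regions and genes are named where the call held without each of the 6 libraries and in all 3 pools: the 8 largest gains and losses of mean value, the longest runs, the 4 strongest regions at the floor in each direction, the 5 strongest regions of each group, and up to 3 genes per list and direction, with Csf1r, Spi1 and Actb shown whatever their values. Not all of these are printed, and some items are not reported here. The members and lists were chosen with earlier results of these data known. Alternatives were other pseudocounts and filters, centring, no pool term, edgeR, other widths and gaps, overlapping regions only, and leaving out each library.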

Additional observations from a re-analysis of the deposited data

How the results depend on the processing

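The counts of higher and lower regions and genes stayed within 1.5 times of those reported except as follows. Requiring over 3 reads in all 6 libraries left fewer regions to test, with 2817 higher and 3363 lower with LPS. Without the replicate block, the pool term, 1799 genes were lower. With a width of 10 kb, 1923 broad domains were higher and 1807 lower, and with 30 kb, 345 and 278. Runs of higher regions numbered 204 without the replicate block, 17 with the filter on 3 reads and 228 with gaps of 25 kb, and between 232 and 345 when 1 library was left out. Runs of lower regions numbered 198, 24 and 226 under the same settings, and between 219 and 324 when 1 library was left out. The log2 difference at Fth1 and Best1, which was not called, ran between -0.13 and 0.13 when 1 library was left out, with -0.02 and -0.09 without untreated replicates 1 and 2, and the region near Zeb2 was at 0.07 with median centring. With overlapping regions only, Ccne1 was at -0.58 and Eed at 0.23. Of the values for single genes, regions, lists and motifs, 3022 kept their direction and side of the threshold or stayed within 1.5 times, 91 counts or untested values moved further, 17 lost a call, 3 gained one and 6 changed sign. The cause of these changes was not tested. Depth limits weak regions: at 20 to 89 reads per median region, a region at 1 read is below detection and not shown to lack the mark.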
